A study of Mus musculus with 23 samples.

Results

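Bcl6 and 7 genes of the JAK-STAT pathway were followed in primary mouse embryonic fibroblasts (MEFs) carrying different forms of the glucocorticoid receptor (GR). The genes were chosen by name, with earlier results of these data known: the inhibitors Socs1, Socs2, Socs3 and Cish, the transcription factors Stat3, Stat5a and Stat5b, and the repressor Bcl6. They are 8 of the 55487 rows of the count table, and all 8 passed the expression filter that left 15748 genes for testing.

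Cells of the FVB/NJ strain received solvent (vehicle) or 10 nM dexamethasone (Dex), a synthetic GR ligand, for 5 h. The 4 genotypes were unmodified GR (GRwt/wt), an alanine to threonine change where the DNA-binding domains of a dimer meet (GRD/D), an isoleucine to alanine change within the ligand-binding domain (GRL/L), and both changes on each allele (GRD+L/D+L). Both treatments were applied to every genotype, so that each mutation was present in its own vehicle controls. The L and D+L alleles were made by CRISPR/Cas9 in zygotes that already held 1 D allele and were then backcrossed, and all alleles are constitutive, so that the cells had developed with the altered receptor. MEFs were grown from mid-gestation embryos after removal of head and organs, and each culture of a genotype came from a different animal. The 23 libraries made 8 groups of genotype and treatment with 3 libraries each, apart from GRD/D vehicle with 2.

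In this pathway, a cytokine or hormone brings receptor chains together, receptor-bound JAK kinases phosphorylate STAT proteins, and STAT dimers enter the nucleus and bind DNA. Among the genes that STATs switch on are those of the SOCS family and Cish, whose proteins block the receptor or the kinase and so close a negative feedback loop. Bcl6 is a zinc finger repressor that recognises sites resembling those of STATs, and it is known to respond to glucocorticoids in other tissues. GR itself can bind Stat3 and Stat5 proteins and share target genes with them, which makes the pathway a place where glucocorticoid and cytokine signals meet.

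The DNA word that STAT dimers favour is the palindrome TTCNNNGAA, and it was searched in the promoters of the 8 genes as a description of where such words lie. The RefSeq promoters used here (GRCm38.p6) run from 250 bases before each start to 50 bases after it. They include 10 promoters for 7 of the 8 genes, with none for Socs2. The palindrome occurred in 4 of these 10 promoters, belonging to 3 genes, and in 8.3% of all 32851 promoters of this length. The palindrome reads the same way on both strands. The matched stretches are shown as the places where these letters occur near the starts of the members, with each palindrome in capitals, 5′ to 3′ along the gene.
Bcl6, first promoter: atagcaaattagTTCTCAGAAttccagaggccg
Bcl6, second promoter: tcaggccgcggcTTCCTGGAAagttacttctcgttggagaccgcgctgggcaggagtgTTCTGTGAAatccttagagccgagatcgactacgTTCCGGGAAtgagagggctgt
Socs3 promoter: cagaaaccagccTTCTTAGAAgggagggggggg
Cish start: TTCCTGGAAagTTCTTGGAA
The first Bcl6 stretch lies at chr16:23988950-23988982 upstream of the annotated gene, and its palindrome begins at base -118 from the start. The second, at chr16:23981351-23981463, falls in an intron of an annotated Bcl6 transcript and holds 3 palindromes, beginning at bases -168, -122 and -88 from the second start. The Socs3 stretch, at chr11:117969500-117969532, sits in an intron of a noncoding Socs3 transcript, with its palindrome beginning at base -154. The Bcl6 and Socs3 stretches are on the minus strand. In Cish, on the plus strand at chr9:107296659-107296678, both palindromes lie downstream of the RefSeq start, at bases 1 and 12, inside an annotated Cish exon. No palindrome was found in the windows of Socs1, Stat3, Stat5a or Stat5b.

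The GR element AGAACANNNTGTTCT, itself a palindrome, was found in none of the 10 promoters and in 0.00913% of all promoters. The shorter word AGAACA, read on either strand, occurred in 19% of all promoters, and among the members in the second Bcl6 promoter and in that of Stat3. In the second Bcl6 promoter it begins at base -124 on the opposite strand and shares bases with the middle STAT palindrome. These are matches of letters in a short window, and no binding was measured.

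Library totals lay between 16.5 and 23.1 M counts. GRwt/wt vehicle replicate 1 stood apart, with a highest Spearman correlation to any other library of 0.916, where each of the others reached at least 0.973. The 10 fibroblast markers summed to between 32959 and 57538 CPM (counts scaled to library size) with none at 0. The 12 macrophage markers summed to between 19.5 and 5196 CPM in GRwt/wt vehicle, with the highest value in replicate 3, and to between 18.6 and 107 CPM in GRwt/wt Dex. In GRD/D they reached 289 to 1842 CPM, and in GRL/L 330 to 816 CPM. Values for GRD+L/D+L were 8.22 to 88.6 CPM, where up to 4 of the 12 were at 0. Of the 12, 10 were called lower in GRD+L/D+L vehicle (8.32% of all genes called in either direction) and 1 in GRL/L vehicle (7.78%) than in GRwt/wt vehicle. The GRwt/wt vehicle sums were 44.7 and 19.5 CPM in replicates 1 and 2, against 5196 CPM in replicate 3. The mean behind these marker calls thus came mostly from replicate 3, and the calls were not recomputed without it. Epithelial, endothelial and muscle markers summed to at most 5.79, 20.8 and 210 CPM in a library. The muscle sum was 210 CPM in GRwt/wt vehicle replicate 1 and 140 CPM in GRwt/wt Dex replicate 1, and at most 19.5 CPM in any other library. Values without GRwt/wt vehicle replicate 1 or 3 are given beside many of the results they move, and in bulk cultures fewer cells of a type and less RNA per cell cannot be told apart. Nr3c1, which encodes GR, measured 4.08 CPM (74 counts) in GRwt/wt vehicle replicate 1, the library that stood apart, and 73.0 and 88.0 CPM in replicates 2 and 3. Each of the other 22 libraries held at least 44.5 CPM. Since the mutations are point mutations, the level of Nr3c1 does not identify a genotype, and the part of this low value in the results was not tested beyond the values given without that library. Its vehicle mean was 55.0 CPM in GRwt/wt, 205 CPM for GRD+L/D+L, 135 CPM for GRL/L and 106 CPM for GRD/D. Nr3c1 was called higher in GRD+L/D+L vehicle than in GRwt/wt vehicle (log2 fold change 1.90, adjusted p = 0.0370, and 1.36 without GRwt/wt vehicle replicate 1, adjusted p = 0.00575), a call that ended without GRD+L/D+L vehicle replicate 2 (adjusted p = 0.104) or 3 (adjusted p = 0.0902), without either GRD/D vehicle library (adjusted p = 0.0501 without replicate 1) and with only these genotypes fitted (adjusted p = 0.206). Fkbp5, a gene known to be induced by glucocorticoids, averaged 31.0 ± 12.9 CPM (SD, n = 3) in vehicle and 348 ± 36.9 (n = 3) in Dex in GRwt/wt. It averaged 102 ± 13.7 CPM in GRD/D Dex, 29.7 ± 0.797 in GRL/L Dex and 29.3 ± 7.13 in GRD+L/D+L Dex. Vehicle means were 31.9 ± 1.01 (n = 2), 27.3 ± 1.92 and 27.9 ± 7.15 CPM in that order. The log2 fold change of Fkbp5 with Dex was 3.49 in GRwt/wt and 1.68 in GRD/D (adjusted p = 0.137, not called). For Tsc22d3, another gene known to be induced by glucocorticoids, it was 1.92 in GRwt/wt and 0.18 in GRD/D.

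The members differed widely in abundance. Per kb of exon, Stat3 was the most abundant with a mean level of 26.9 CPM per kb over the 23 libraries, followed by Socs3 (6.36), Stat5b (6.14), Bcl6 (5.41) and Stat5a (3.87). Socs1 (1.70), Cish (0.649) and Socs2 (0.513 CPM per kb) were the least abundant. In reads this meant 3248 to 7107 counts per library for Stat3 and 546 to 994 for Bcl6, but only 38 to 144 for Socs1, 42 to 120 for Cish and 21 to 252 for Socs2. Between the lowest and the highest library, Bcl6 differed 1.59-fold, Stat5b 1.63-fold, Stat3 1.84-fold and Stat5a 1.90-fold. Cish differed 2.46-fold, Socs1 3.05-fold, Socs3 7.31-fold and Socs2 10.2-fold. GRwt/wt Dex replicate 2 was the highest of all libraries for 4 members, namely Bcl6, Socs2, Stat5a and Stat5b.

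**Figure D1:**
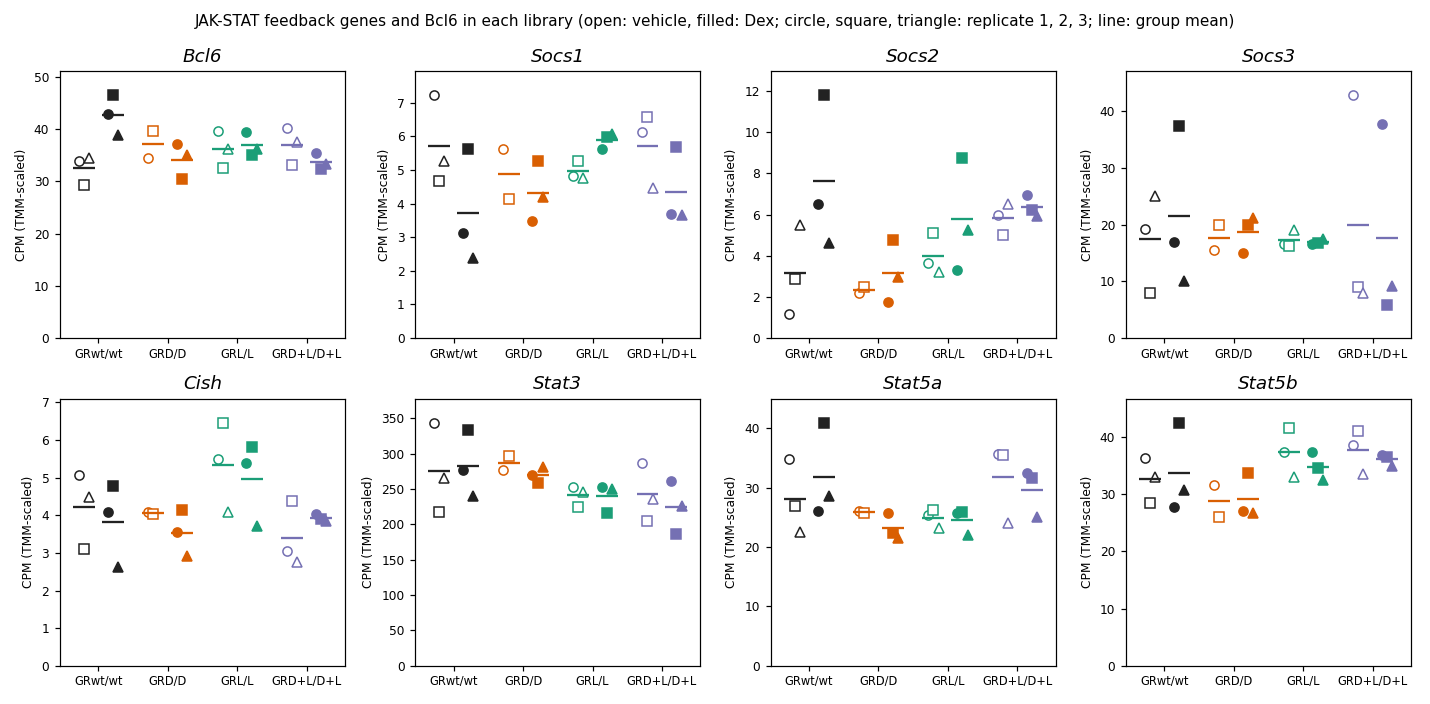
Expression of the 8 genes in each of the 23 libraries, in CPM after TMM scaling (y axis, from 0), grouped by GR genotype (x axis). Open symbols are vehicle and filled symbols Dex, the symbol shape is the replicate number, and the line is the group mean. Bcl6 is the gene whose 3 GRwt/wt Dex libraries (38.8 to 46.6 CPM) all lie above the 3 vehicle libraries (29.3 to 34.6 CPM), and Socs3 spreads most within GRD+L/D+L.

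Whether Dex altered these genes, and whether that needed an intact receptor, is the question the design puts to them. Throughout, a call needed both an absolute log2 fold change (LFC) of at least 1 and a p, adjusted over all genes tested by the Benjamini-Hochberg method, of at most 0.05. None of the 8 members was called with Dex in any genotype by edgeR. In GRwt/wt, 25 of the 15748 genes were called (0.159%), all higher with Dex, whereas in each of the 3 mutants the share of genes called was 0%. In GRwt/wt, the count and its direction depended on the setting. Without GRwt/wt vehicle replicate 2 there were 182 genes higher and 192 lower, without vehicle replicate 1 there were 41 and 34, and without vehicle replicate 3 there were 93 and 2. DESeq2 called 119 higher and 160 lower. In the mutants, over the alternatives tried, the number called with Dex reached 7 for GRD/D (with the replicate number as a block), 5 for GRD+L/D+L (with DESeq2) and 0 for GRL/L. At an unadjusted p under 0.05, 3 members stood out in GRwt/wt, Bcl6, Socs1 and Socs2, where 15.6% of all genes passed that looser limit. By the same limit, 0 members passed in any mutant, where 0.978% (GRD/D), 0.343% (GRD+L/D+L) and 0.273% (GRL/L) of all genes did. DESeq2 also called 0 members in each of the 4 genotypes, as it did in every other comparison described here. The median LFC of the members was 0.11 in GRwt/wt, -0.10 in both GRD/D and GRD+L/D+L, and -0.01 in GRL/L, against -0.01 over all genes in GRwt/wt.

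Bcl6 (ENSMUSG00000022508, chr16:23965052-23988852, minus strand, GRCm38) was the member with the least scatter. In GRwt/wt vehicle it measured 33.9, 29.3 and 34.6 CPM in replicates 1, 2 and 3, and with Dex 43.0, 46.6 and 38.8 CPM. All 3 Dex libraries lay above all 3 vehicle libraries, which was so for 4.98% of all genes, while 4.48% separated in the other direction. Bcl6 was the only member whose GRwt/wt groups did not overlap. The LFC was 0.39 (SE 0.118, 95% confidence interval 0.14 to 0.64), with an unadjusted p of 0.00385 and an adjusted p of 0.165, so that it was not called. The whole interval lay below the fold threshold. Without GRwt/wt vehicle replicate 1 the LFC was 0.42 (adjusted p = 0.0937), without replicate 3 it was 0.48 (adjusted p = 0.0605), and without both it was 0.53. Each of these was larger than 0.39. Leaving out vehicle replicate 2, the lowest, goes the other way, since the vehicle values left are 33.9 and 34.6 CPM, nearer to the Dex values. In DESeq2 the adjusted p was 0.0167 at an LFC of 0.42, which stayed below the fold threshold. Over all alternatives, the adjusted p for Bcl6 ran from 0.0167 to 0.970, the latter when GRwt/wt libraries were fitted on their own.

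In the mutants, the Bcl6 ranges of vehicle and Dex overlapped. GRD/D measured 34.5 and 39.7 CPM in vehicle and 37.1, 30.4 and 35.0 CPM with Dex, an LFC of -0.12 (SE 0.132, interval -0.40 to 0.16), which was -0.23 without vehicle replicate 1 and -0.0099 without vehicle replicate 2. In GRL/L, vehicle gave 39.8, 32.6 and 36.3 CPM and Dex 39.5, 35.1 and 36.2 CPM, with an LFC of 0.03 (SE 0.118, interval -0.22 to 0.28). GRD+L/D+L ran from 33.1 to 40.2 CPM in vehicle and from 32.3 to 35.5 CPM with Dex, with an LFC of -0.13 (SE 0.118, interval -0.38 to 0.12). Adjusted p was 1 in each mutant. All 3 GRD+L/D+L cultures had less Bcl6 with Dex than in vehicle, at 0.883 to 0.976 of the vehicle level, whereas the ratio was 1.12 to 1.59 over equally numbered GRwt/wt libraries.

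Ordered by group mean, Bcl6 was lowest in GRwt/wt vehicle (32.6 ± 2.86 CPM, n = 3) and highest in GRwt/wt Dex (42.8 ± 3.88 CPM, n = 3). The 6 other groups lay close together, from 33.7 ± 1.61 CPM (n = 3) in GRD+L/D+L Dex to 37.1 ± 3.71 CPM (n = 2) in GRD/D vehicle. The step from GRD/D vehicle to GRwt/wt Dex exceeded the larger SD of the pair, and no other step between neighbours did. The vehicle means of the mutants thus fell between both GRwt/wt means.

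Socs2 (ENSMUSG00000020027, chr10:95385362-95417180, minus strand) encodes an inhibitor best known for restraining growth hormone signalling. In GRwt/wt vehicle it stood at 1.16, 2.85 and 5.48 CPM in replicates 1, 2 and 3, and with Dex at 6.52, 11.8 and 4.62 CPM. Its groups overlapped, since vehicle replicate 3 exceeded Dex replicate 3. Of equally numbered pairs, 2 of 3 were higher with Dex, but equal numbers need not mark the same GRwt/wt culture. By deviations from group means over all genes tested, vehicle replicate 2 was most like Dex replicate 3, and vehicle replicate 3 most like Dex replicate 2. Matched in that way, Socs2 was higher with Dex in every pair. The LFC of 1.27 (SE 0.479, interval 0.26 to 2.28) was above the fold threshold, but the adjusted p was 0.219. Single libraries moved it. The LFC was 0.81 without GRwt/wt Dex replicate 2, 0.87 without vehicle replicate 1 and 1.96 (adjusted p = 0.0526) without vehicle replicate 3. In the mutants, the LFC of Socs2 was 0.13 in GRD+L/D+L (interval -0.86 to 1.12), 0.45 for GRD/D (-0.69 to 1.60) and 0.53 for GRL/L (-0.47 to 1.52), each with an adjusted p of 1. Single libraries moved these too. Socs2 had an LFC of 0.034 in GRD/D without GRD/D Dex replicate 2 and of 0.096 in GRL/L without GRL/L Dex replicate 2, and it was 0.026 in GRD+L/D+L without GRD+L/D+L vehicle replicate 2. GRD/D held the least, at 2.17 and 2.48 CPM in vehicle and 1.77 to 4.78 CPM with Dex. GRD+L/D+L had the steadiest Socs2, at 4.99 to 6.54 CPM in vehicle and 5.91 to 6.96 CPM with Dex.

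Socs1 (ENSMUSG00000038037, chr16:10782240-10785536, minus strand), which binds JAK kinases directly and is known as a brake on interferon signalling, differed in the other direction. In GRwt/wt vehicle it measured 7.23, 4.67 and 5.26 CPM in replicates 1, 2 and 3, and with Dex 3.13, 5.62 and 2.37 CPM. Dex replicate 2 lay inside the vehicle range and the other Dex libraries lay below it. The LFC was -0.62 (SE 0.288, interval -1.22 to -0.01, adjusted p = 0.309). It was -1.05 without GRwt/wt Dex replicate 2, -0.38 without Dex replicate 3, -0.41 without vehicle replicate 1 and -0.34 with neither vehicle replicate 1 nor 3. In GRL/L the Dex values of 5.63, 5.97 and 6.06 CPM all lay above the vehicle values of 4.83, 5.27 and 4.76 CPM, a separation seen in 2.43% of all genes, for an LFC of 0.25 (interval -0.35 to 0.85). The LFC was -0.18 in GRD/D (interval -0.85 to 0.50) and -0.40 in GRD+L/D+L (0.605 to 0.864 of the vehicle level within cultures), and adjusted p was 1 in all 3 mutants.

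Socs3 (ENSMUSG00000053113, chr11:117966079-117970047, minus strand), the classical inhibitor of signalling through the shared chain of interleukin-6 type receptors, had the largest fitted spread of the 8 genes. In GRwt/wt it stood at 19.3, 7.89 and 25.1 CPM in vehicle and 16.9, 37.4 and 9.99 CPM with Dex in replicates 1, 2 and 3. The LFC of 0.30 (interval -1.10 to 1.70, adjusted p = 0.846) was -0.37 without Dex replicate 2, 0.71 without vehicle replicate 3 and 1.43 with neither vehicle replicate 1 nor 3. The GRD+L/D+L cultures measured 42.9, 8.92 and 8.01 CPM in vehicle, and 37.7, 5.86 and 9.12 CPM with Dex. Replicate 1 was thus high in both treatments. The highest culture exceeded the lowest 5.35-fold in vehicle and 6.43-fold with Dex, whereas within cultures the Dex level was 0.657 to 1.14 of the vehicle level. GRL/L cultures were alike, with all 6 libraries between 16.1 and 19.1 CPM. GRD/D ran from 14.9 to 21.2 CPM over its 5 libraries.

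Cish (ENSMUSG00000032578, chr9:107296026-107302784, plus strand) encodes the founding member of the SOCS family and is a standard Stat5 target. GRwt/wt libraries held 3.11 to 5.08 CPM in vehicle and 2.62 to 4.78 CPM with Dex, an LFC of -0.14 (interval -0.70 to 0.43, adjusted p = 0.824) whose sign turned without Dex replicate 3 (0.07) or vehicle replicate 1 (0.01). GRL/L held the highest Cish on average, 4.09 to 6.46 CPM in vehicle and 3.72 to 5.81 CPM with Dex. In that genotype 0 of 3 cultures were higher with Dex, at 0.899 to 0.981 of the vehicle level. In GRD+L/D+L, 2 of 3 cultures were higher with Dex, and the LFC was 0.20 (interval -0.36 to 0.77).

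Stat3 (ENSMUSG00000004040, chr11:100885098-100939540, minus strand) transmits signals of interleukin-6 type cytokines. In GRwt/wt it measured 344, 217 and 266 CPM in vehicle and 277, 333 and 240 CPM with Dex in replicates 1, 2 and 3. These ranges overlapped almost entirely, and the LFC was 0.04 (interval -0.32 to 0.40, adjusted p = 0.929), or 0.37 with neither vehicle replicate 1 nor 3. GRD/D held 258 to 297 CPM, GRL/L 216 to 253 CPM and GRD+L/D+L 187 to 287 CPM over both treatments. As for Socs3, GRD+L/D+L replicate 1 was the highest culture of its genotype in both treatments, at 287 CPM in vehicle and 261 CPM with Dex. In that genotype 0 of 3 cultures were higher with Dex, at 0.907 to 0.962 of the vehicle level.

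**Figure D2:**
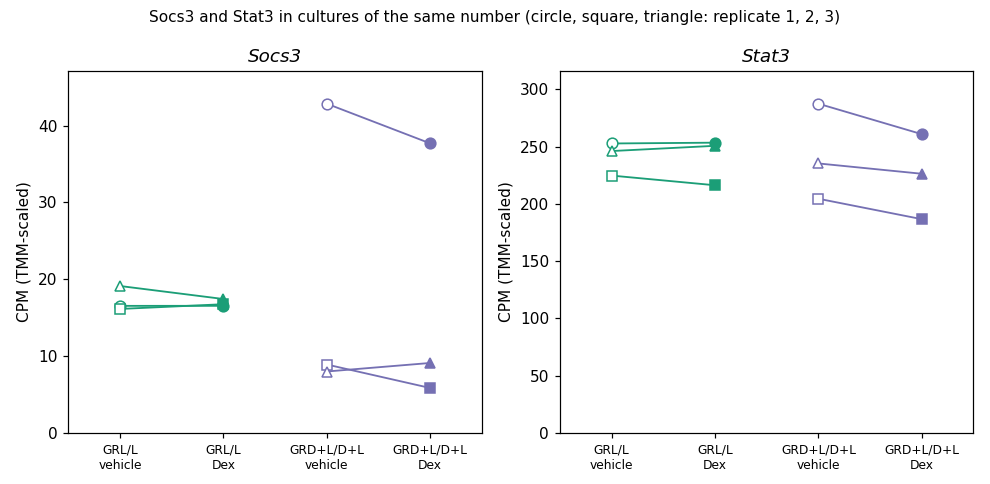
Socs3 (left) and Stat3 (right) in CPM (y axes, from 0) in cultures of genotypes GRD+L/D+L and GRL/L, with lines joining the vehicle (open) and Dex (filled) libraries of the same replicate number. GRD+L/D+L replicate 1 (circles) lies apart for Socs3, at 42.9 and 37.7 CPM, while Dex levels within the GRD+L/D+L cultures are 0.657 to 1.14 of the vehicle level.

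Stat5a and Stat5b (ENSMUSG00000004043, chr11:100859351-100885169, plus strand, and ENSMUSG00000020919, chr11:100780731-100850724, minus strand) are neighbours on chromosome 11, 8627 bp apart, and encode closely related factors downstream of growth hormone and prolactin. Stat5a lay between 22.6 and 34.9 CPM in GRwt/wt vehicle and between 26.0 and 40.9 CPM with Dex, an LFC of 0.18 (interval -0.22 to 0.58, adjusted p = 0.677). Stat5b lay between 28.4 and 36.4 CPM in vehicle and between 27.8 and 42.5 CPM with Dex, an LFC of 0.05 (interval -0.28 to 0.38, adjusted p = 0.898). Both highest values belonged to GRwt/wt Dex replicate 2, without which the LFCs were -0.04 and -0.15. With neither GRwt/wt vehicle replicate 1 nor 3 they were 0.23 for both. In the mutants, the LFC with Dex ran from -0.16 to -0.02 for Stat5a and from -0.10 to 0.02 for Stat5b. In GRD/D all Dex values of Stat5a (21.5 to 25.7 CPM) lay just below both vehicle values (25.8 and 26.1 CPM), as was so in that direction for 10.5% of all genes. The last 72 bp of Stat5a overlap the end of Stat3 on the other strand, and without strand information reads there cannot be told apart. Other genes overlapping members held at most 2 counts (Gm37419, across Bcl6) and 1 count (Gm17040, across Cish) in a library.

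**Figure D3:**
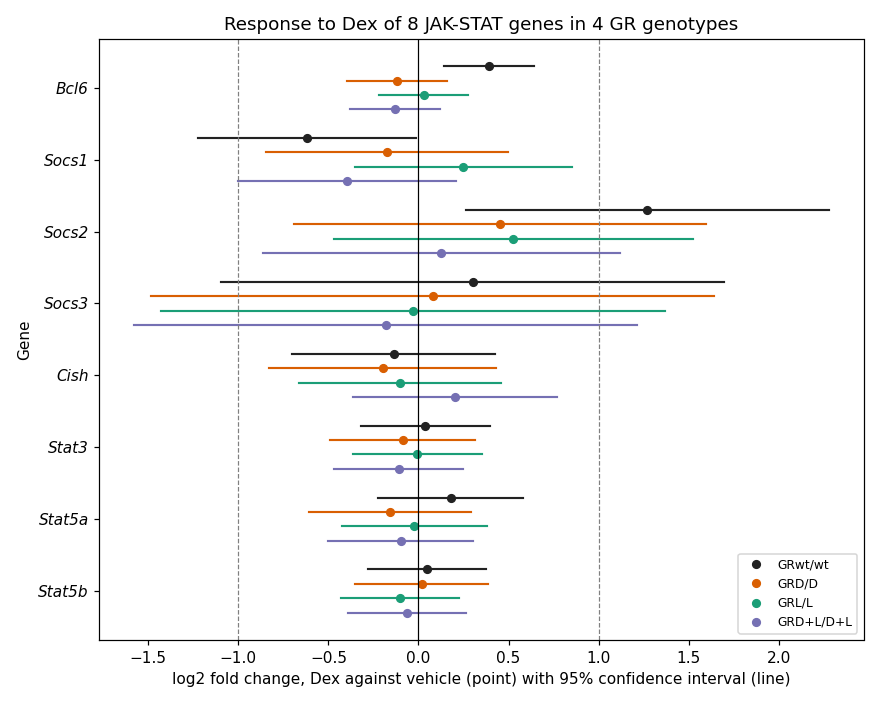
Log2 fold change of Dex against vehicle (points, x axis) with its 95% confidence interval (lines) for each of the 8 genes (y axis) in the 4 genotypes (colours), and dashed lines at the fold threshold of 1 in each direction. The GRwt/wt intervals of Bcl6 (0.14 to 0.64), Socs2 (0.26 to 2.28) and Socs1 (-1.22 to -0.01) leave out 0 before adjustment, and all others include it.

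A response in one genotype and not in another differs between them only if the difference itself passes a test, so the Dex response of each mutant was compared with that of GRwt/wt. No member was called. Of all genes, 0% were called for GRD/D, and 4 genes (0.0254%) were called for GRL/L, as were 4 (0.0254%) for GRD+L/D+L. Over the alternatives these counts ran from 0 to 11 for GRD/D, from 1 to 22 for GRL/L and from 0 to 19 for GRD+L/D+L. For Bcl6 the difference was -0.52 in the double mutant GRD+L/D+L (SE 0.167, interval -0.88 to -0.17, adjusted p = 0.969). It was -0.51 for GRD/D (SE 0.176, interval -0.88 to -0.14, adjusted p = 0.688) and -0.36 for GRL/L (SE 0.167, interval -0.72 to -0.01, adjusted p = 0.790). It was negative in all 3 mutants, but the 3 values share the GRwt/wt libraries. The unadjusted p for Bcl6 was 0.00580 in GRD+L/D+L, 0.00974 in GRD/D and 0.0427 in GRL/L. An unadjusted p under 0.05 was reached by Bcl6 alone in GRD+L/D+L (5.05% of all genes) and GRD/D (7.11%), and by 2 members, Bcl6 and Socs1, in GRL/L (6.29%). For Socs1 the difference was 0.87 in GRL/L (SE 0.405, interval 0.01 to 1.72, adjusted p = 0.790). For Socs2 it was -1.14 in GRD+L/D+L, -0.82 in GRD/D and -0.74 in GRL/L, and all 3 intervals included 0. Single GRwt/wt libraries moved these Socs2 differences. Without vehicle replicate 3 they were -1.84, -1.52 and -1.44 in that order, and without Dex replicate 2 they were -0.69, -0.36 and -0.29. Among Socs3, Cish, Stat3, Stat5a and Stat5b, differences ran from -0.48 (Socs3 in GRD+L/D+L) to 0.34 (Cish in GRD+L/D+L). The Socs3 interval in GRD/D, from -2.31 to 1.87, was the widest of these.

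**Figure D4:**
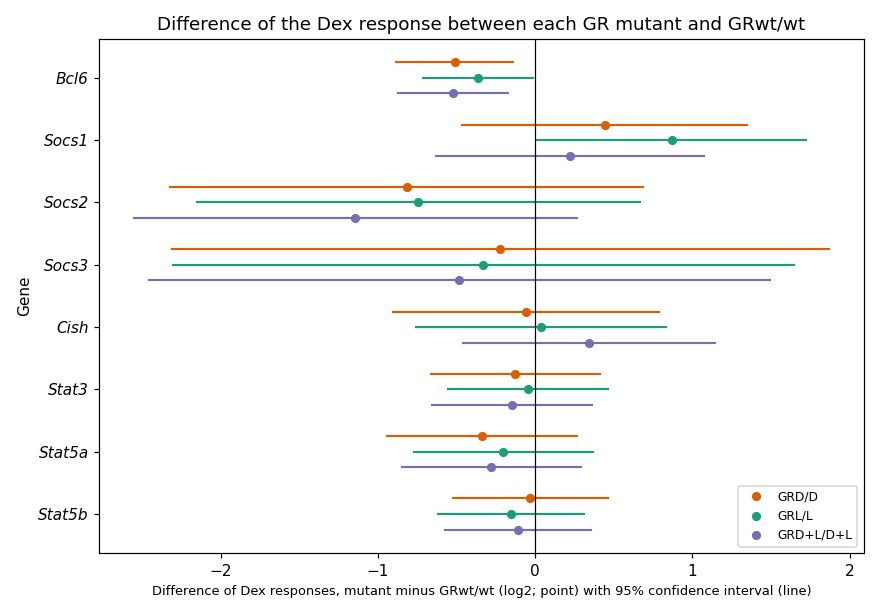
Dex response of each mutant minus that of GRwt/wt on the log2 scale (points, x axis) with 95% confidence intervals (lines) for the 8 genes (y axis), with colours marking the mutants. All 3 Bcl6 intervals lie below 0 before adjustment, and those of Socs2 and Socs3 span from beyond -2 to above 0.

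Levels in vehicle address whether the mutations matter without added ligand. No member was called in any mutant against GRwt/wt, and 0 members had an unadjusted p under 0.05. Of all genes, 1 was called in GRD/D (0.00635%) and 12.4% had such a p. That count was 376 without GRwt/wt vehicle replicate 3 and 56 with neither vehicle replicate 1 nor 3. In GRL/L 1225 genes were called (7.78%, with 37.1% at such a p), and in GRD+L/D+L 1311 (8.32%, with 35.6% at such a p). Omitting GRwt/wt vehicle replicate 3 gave 2674 calls for GRL/L and 2003 for GRD+L/D+L. Omitting vehicle replicate 1 or 2 of GRL/L gave 797 and 791 for that genotype, and omitting vehicle replicate 2 or 3 of GRD+L/D+L gave 586 and 717. With only the compared genotypes fitted there were 705 for GRL/L and 111 for GRD+L/D+L. The vehicle LFC of Bcl6 was 0.15 in GRL/L, 0.18 in GRD+L/D+L and 0.19 in GRD/D, with intervals that included 0. In that order these LFCs were 0.027, 0.038 and 0.091 with upper-quartile scaling, 0.061, 0.092 and 0.093 without GRwt/wt vehicle replicate 2, and 0.29, 0.32 and 0.32 with neither GRwt/wt vehicle replicate 1 nor 3. The largest member difference was that of Socs2 in GRD+L/D+L, with an LFC of 0.87 (SE 0.477, interval -0.13 to 1.88, adjusted p = 0.195). Without GRwt/wt vehicle replicate 3, the library with the highest macrophage marker sum, it was 1.58 with an adjusted p of 0.0285 and was called. Without vehicle replicate 1 it was 0.49, and without both it was 1.01.

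With Dex present, again no member was called in the mutants. In GRD/D, 40 genes were called (0.254%), and 3 members, Bcl6, Socs2 and Stat5a, had an unadjusted p under 0.05, as had 11.1% of all genes. The 40 became 5 without GRD/D Dex replicate 3, 306 without GRwt/wt vehicle replicate 3 and 487 with neither GRwt/wt vehicle replicate 1 nor 3. In GRL/L, 408 genes were called (2.59%, with 148 to 952 on leaving out single libraries), and only Socs1 of the members had such a p (22.7% of all genes). In GRD+L/D+L, 433 genes were called (2.75%, with 94 to 959), and only Bcl6 of the members had such a p (20.9% of all genes). The LFC of Bcl6 against GRwt/wt was -0.34 for GRD+L/D+L (adjusted p = 0.0996), -0.32 for GRD/D (adjusted p = 0.279) and -0.21 for GRL/L (adjusted p = 0.291), each with an SE of 0.118. The 3 GRD+L/D+L libraries, at 32.3 to 35.5 CPM, lay below the 3 GRwt/wt libraries, at 38.8 to 46.6 CPM, a separation seen in 14.7% of all genes. The 3 GRD/D libraries, at 30.4 to 37.1 CPM, also lay below GRwt/wt (12.4% of all genes), whereas GRL/L, at 35.1 to 39.5 CPM, overlapped with it. Stat5a was likewise below GRwt/wt without overlap in GRD/D and in GRL/L (20.4% of all genes), and Socs1 above it in GRL/L (22.2%). For GRD+L/D+L the adjusted p became 0.0415 without GRwt/wt vehicle replicate 1 and 0.0294 with neither vehicle replicate 1 nor 3, although both lie outside the groups compared, and the LFC stayed within the fold threshold. Over all alternatives the adjusted p ran from 0.0294 to 0.394, the latter without the expression filter, and the LFC was -0.28 without GRwt/wt Dex replicate 2. Socs2 differed by -1.26 in GRD/D (SE 0.480, adjusted p = 0.304), or -0.81 without GRwt/wt Dex replicate 2, and Stat5a by -0.46 (SE 0.192, adjusted p = 0.361), or -0.24 without that library. Socs1 in GRL/L differed by 0.66 (SE 0.288, adjusted p = 0.180), and without GRwt/wt Dex replicate 2 by 1.09 with an adjusted p of 0.0283, which was a call. Without GRwt/wt Dex replicate 3 it was 0.43 with an adjusted p of 0.461.

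The rest of the pathway was described with a list of 66 other ligands, receptors, kinases, STATs, regulators and targets, of which 63 could be tested. edgeR called none with Dex in any genotype or in the differences of the Dex response. With Dex, 7 of the 63 had an unadjusted p under 0.05 in GRwt/wt, where 15.6% of all genes did, 1 in GRD/D, where 0.978% did, and 0 in the other mutants. DESeq2 called 2 in GRwt/wt. The median LFC of the list with Dex in GRwt/wt was -0.07, against -0.01 over all genes. Among genes that carry the signal, the LFC with Dex in GRwt/wt was 0.78 for the shared receptor chain Il6st (SE 0.427, adjusted p = 0.395), 0.64 for the kinase Jak1 (SE 0.379, adjusted p = 0.441) and 0.28 for Jak2 (SE 0.512, adjusted p = 0.813). For Igf1, a growth hormone and Stat5 target, it was 0.39 (SE 0.693, adjusted p = 0.807). GRwt/wt vehicle libraries ran from 173 to 622 CPM for Il6st, 66.5 to 370 for Jak1, 5.02 to 83.2 for Jak2 and 19.5 to 187 for Igf1. The lowest value of each gene belonged to vehicle replicate 1, the library that stood apart. In GRwt/wt Dex the ranges were 469 to 886, 346 to 440, 46.0 to 60.5 and 69.5 to 198 CPM in that order. The ligand Il6 was close to silent, with 2 to 4 counts per library in GRwt/wt vehicle and 0 to 2 with Dex. Under single alternatives, Cebpd, Prlr, Il6ra, Il10rb, Lepr and Pias1 were called with Dex in GRwt/wt, Il10rb lower and the others higher, at most 3 of them together. These were named after their values were seen.

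In vehicle, 4 of the 63 pathway genes were called higher and 1 lower in GRL/L, where 7.78% of all genes were called, so that the count stood near the background. The prolactin receptor Prlr rose by an LFC of 2.58 (adjusted p = 0.0230), from 0 to 10 counts per library to 20 to 38, a call that ended without GRL/L vehicle replicate 3 (adjusted p = 0.0684), with neither GRwt/wt vehicle replicate 1 nor 3 (adjusted p = 0.0928) and with only the compared genotypes fitted (adjusted p = 0.0927). Bcl6b, a close relative of Bcl6, rose by 2.48 (adjusted p = 0.0103), from 2 to 8 counts to 26 to 27. Ncor1, a corepressor that Bcl6 recruits, rose by 1.26 (adjusted p = 0.0305), but its LFC was 0.78 without GRwt/wt vehicle replicate 1, which ended the call, and omitting any single GRL/L vehicle library also ended it (adjusted p from 0.0656 to 0.0703). The others were the growth hormone receptor Ghr (1.21) and the STAT target Timp1 (-1.19). The Ghr call ended by the fold threshold alone without GRwt/wt vehicle replicate 1 (0.83, adjusted p = 0.0249). It also ended without GRL/L vehicle replicate 2 (1.12, adjusted p = 0.0550). The Timp1 call ended without GRwt/wt vehicle replicate 1 or 2 (-1.04 each) or GRL/L vehicle replicate 1 (-1.14) or 2 (-0.96). In GRD+L/D+L, where 8.32% of all genes were called, 1 was called higher, Ncor1, and 2 lower, the phosphatase Ptpn6 and the STAT target Pim1. Ncor1 had an LFC of 1.31. Without GRwt/wt vehicle replicate 1 it was 0.84 (adjusted p = 0.000178), which ended the call by the fold threshold alone. The Ncor1 call also ended without any single GRD+L/D+L vehicle library (adjusted p from 0.0587 to 0.0739). Ptpn6, which blood cells express strongly, had an LFC of -3.13 (adjusted p = 0.0436), and of -0.33 without GRwt/wt vehicle replicate 3, in which it stood at 24.3 CPM. Pim1 had an LFC of -1.26 (adjusted p = 0.0213), and of -0.30 with neither GRwt/wt vehicle replicate 1 nor 3. Its call also ended without GRwt/wt vehicle replicate 1 (adjusted p = 0.0523) or 3 (adjusted p = 0.0556), or GRD+L/D+L vehicle replicate 1 (adjusted p = 0.0579) or 2 (adjusted p = 0.0856). In GRD/D edgeR and DESeq2 called 0 of the 63. At an unadjusted p under 0.05 there were 8 for GRD/D (12.4% of all genes), 18 for GRL/L (37.1%) and 23 for GRD+L/D+L (35.6%). Ctf1, a ligand named after its values were seen, was called lower in GRD/D without GRwt/wt vehicle replicate 3 (LFC -1.48, adjusted p = 0.0237).

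With Dex, 2 of the 63 pathway genes were called higher and 1 lower in GRL/L (2.59% of all genes called), and 1 in each direction in GRD+L/D+L (2.75%), with 0 in GRD/D (0.254%). At an unadjusted p under 0.05 there were 9 for GRD/D (11.1% of all genes), 14 for GRL/L (22.7%) and 18 for GRD+L/D+L (20.9%). Cebpd, a STAT target and known glucocorticoid-induced gene, was lower in both, with an LFC of -1.98 for GRL/L (adjusted p = 0.00651) and of -1.94 for GRD+L/D+L (adjusted p = 0.00879). The GRD+L/D+L call ended without GRD+L/D+L Dex replicate 2 (LFC -1.78, adjusted p = 0.0646), and with only the compared genotypes fitted the adjusted p was 0.0670 for GRL/L and 0.0514 for GRD+L/D+L. Cebpd averaged 33.7 ± 11.2 CPM in GRwt/wt Dex, 8.57 ± 4.31 in GRL/L Dex and 8.78 ± 1.91 in GRD+L/D+L Dex (n = 3 each). Its vehicle means were 10.8 ± 2.65, 7.82 ± 3.44 and 9.46 ± 1.42 CPM in that order (n = 3 each). In GRD/D it averaged 7.92 CPM in vehicle (n = 2) and 14.4 CPM with Dex (n = 3). The LFC of Cebpd with Dex in GRwt/wt was 1.64 (adjusted p = 0.0972, not called). Bcl6b was higher in GRL/L, with 17 to 29 counts against 2 to 5 in GRwt/wt (LFC 2.99, adjusted p = 0.0157), a call that ended without GRwt/wt Dex replicate 1 or 3 or GRL/L Dex replicate 1 or 3, at an LFC of 2.76 to 2.95. Jak3 was higher in GRL/L by an LFC of 1.01 (adjusted p = 0.0435), a call that 18 of 31 alternatives did not keep. Il6 was called in GRD+L/D+L (adjusted p = 0.0412) on 3 to 20 counts per library against 0 to 2 in GRwt/wt, and 13 of 29 alternatives did not keep that call. In GRD/D, DESeq2 called Bcl6b (LFC 2.50, adjusted p = 0.0241) and Cebpd (LFC -1.23, adjusted p = 0.0461), and edgeR called Ctf1 without GRwt/wt vehicle replicate 3 (LFC -1.07, adjusted p = 0.0457). With neither GRwt/wt vehicle replicate 1 nor 3, edgeR called Bcl6b and Ctf1 there.

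Across the 23 libraries, the members did not move as a single block. The closest pair was Socs3 and Stat3 (Spearman rho 0.72), and the next were Socs1 with Stat5b (0.58) and Cish with Stat5b (0.52). Stat5a and Stat5b had a rho of 0.49, and Bcl6 and Stat3 also 0.49. These are descriptions over libraries that share cultures, treatments and genotypes. Among 13240 genes, those most like each member were 1700123M08Rik (rho 0.74) and Nr2f2 (0.66) for Bcl6, Edc3 and Sart3 (both 0.74) for Socs1, and Cdkn1b (0.79) and Sesn1 (0.75) for Socs2. For Socs3 they were Gap43 (0.90) and Ptpn1 (0.87), for Cish Mapk7 (0.81) and Atp13a2 (0.79), and for Stat3 Padi2 (0.85) and Phc2 (0.84). Bag6 (0.81) and Btd (0.80) were nearest to Stat5a, and Zfp395 (0.89) and Chtf8 (0.84) to Stat5b. Bcl6 thus had the weakest nearest neighbours of the 8 genes together with Socs1, at 0.74.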

How the data were processed

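The authors deposited a table of raw read counts per Ensembl gene for 23 TruSeq libraries of total RNA. The submitters' processing notes name HISAT2 2.1.0, featureCounts 2.0.0 and the GRCm38 build, and strandedness is not given in the sources used here. Symbols and coordinates came from GENCODE M21. The test was edgeR's quasi-likelihood F test (edgeR 4.0.16, R 4.3.3), with TMM scaling, filterByExpr, 1 mean per group over all libraries and a prior count of 0.125. Adjusted p-values are from edgeR over all genes tested unless DESeq2 1.42.0 is named. Intervals are 95% and, like the SE, follow from the LFC and its F statistic with moderated degrees of freedom. All libraries of a group differed by more than counting noise.

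All 8 members were named in full. Of the other pathway genes, up to 3 with the largest absolute LFC among those called in a comparison were named, plus Il6, Il6st, Jak1, Jak2 and Igf1, and likest genes were the 2 with the highest Spearman rho at a mean of at least 1 CPM. The remaining called genes, Ghr and Timp1, were named because the count was small. Members, lists and tests were chosen with earlier results of these data known, so the lists are not independent evidence. Dex was compared with vehicle per genotype, this response with that of GRwt/wt, and the mutants with GRwt/wt per treatment. Groups come from the labels. Whether equal replicate numbers mark the same culture was checked by correlating deviations from group means. Those of GRL/L (0.322 to 0.644) and GRD+L/D+L (0.652 to 0.887) paired. Those of GRwt/wt (-0.026 to 0.548) and GRD/D (-0.199 to 0.283) did not pair as a whole, and only vehicle replicate 1 was most like its own number. GRwt/wt vehicle replicates 2 and 3 were most like Dex replicates 3 and 2, and GRD/D vehicle replicate 2 was most like Dex replicate 3. No column was left unmapped. Scripts were tested on simulated data. Alternatives are listed in the closing section.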

Additional observations from a re-analysis of the deposited data

How the results depend on the processing

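The number of members called was recomputed under upper-quartile or RLE scaling, without the expression filter, with adjusted p alone, with only the genotypes compared, with DESeq2, a prior count of 2 or a replicate block, without each library, and with neither GRwt/wt vehicle replicate 1 nor 3. Of 410 such counts, 408 stayed at 0 and 2 did not. Leaving out single libraries gave 0 to 1 for GRL/L against GRwt/wt in Dex (Socs1, without GRwt/wt Dex replicate 2) and 0 to 1 for GRD+L/D+L against GRwt/wt in vehicle (Socs2, without GRwt/wt vehicle replicate 3). The replicate block left the count at 0 in all 7 comparisons it could be fitted to, and changed no call of a member. In GRwt/wt and GRD/D, only vehicle replicate 1 was most like the Dex library of its own number, so that blocking on culture was not tested there. With Dex in GRwt/wt the sign turned for 5 members, with these LFCs. Leaving out single libraries gave -0.37 (Dex replicate 2) to 0.71 for Socs3, which was -0.061 without vehicle replicate 2. It gave -0.33 to 0.070 (Dex replicate 3) for Cish, which was 0.011 without vehicle replicate 1 and 0.29 with neither vehicle replicate 1 nor 3. It gave -0.12 (vehicle replicate 2) to 0.23 for Stat3, which was -0.095 without Dex replicate 2 and -0.058 with upper-quartile scaling. It gave -0.042 (Dex replicate 2) to 0.37 for Stat5a, and -0.15 (Dex replicate 2) to 0.20 for Stat5b, which was -0.057 without vehicle replicate 2 and -0.042 with upper-quartile scaling. In the mutants the LFC was -0.38 to 0.048 (vehicle replicate 1) for Socs1 in GRD/D, and -0.042 (vehicle replicate 2) to 0.10 for Bcl6 in GRL/L, which was -0.024 without Dex replicate 1. The cause was not tested.

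The calls over all genes, recomputed after the data were seen, depended more on the setting, at 0 to 374 genes with Dex in GRwt/wt (374 without vehicle replicate 2, 279 with DESeq2, 199 with the replicate block). In vehicle they ran from 705 to 3628 for GRL/L and from 111 to 3216 for GRD+L/D+L, and with Dex from 104 to 1193 and from 15 to 1076. For GRD/D they ran from 0 to 376 in vehicle and from 4 to 487 with Dex. The other pathway genes called ranged from 0 to 3 with Dex in GRwt/wt, 1 to 11 in GRL/L vehicle, 0 to 12 in GRD+L/D+L vehicle, 1 to 5 in GRL/L Dex, 0 to 6 in GRD+L/D+L Dex, 0 to 1 in GRD/D vehicle and 0 to 2 in GRD/D Dex. Of 13 pathway calls, 1 passed under every alternative (Bcl6b in GRL/L vehicle). Socs1, Socs2 and Cish had as few as 21 counts in a library, and Socs3, with at least 102, had the largest fitted spread between libraries (square root of the dispersion 0.551, against 0.122 for Bcl6). Groups held 2 or 3 libraries.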
